A study of Homo sapiens with 12 samples.

Results

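A549 cells that had lost their mitochondrial DNA (ρ°, labelled rho0) were compared with the parental cells that kept it (ρ+, labelled rho+) across all well measured genes. The comparison used the 6 arrays labelled A549 of the 12 arrays in the series, 3 of ρ° cells (A, B and C) and 3 of ρ+ cells (A, B and C), and it was made within this line. A549 is an epithelial cell line that was derived from an adenocarcinoma of the lung. The ρ° cells had been kept for 3 weeks in 50 ng/ml ethidium bromide, which stops the copying of mtDNA, and were then pooled without picking clones, so that they are a mixed population and not 1 clone. Parental and ρ° cells shared a high-glucose medium with 10% serum, 1 mM pyruvate and 50 µg/ml uridine. By the study's methods the ethidium bromide was withdrawn before the cells were used, and the ρ+ cells were given none, so the loss of mtDNA cannot be told apart from the past exposure to the dye or from the selection of cells during it. Each array was hybridised with its own preparation of 12 µg total RNA, and the study describes the 3 arrays of a group as independent biological replicates. The remaining 6 arrays come from 143BTK−, a thymidine kinase deficient osteosarcoma line, in the same 2 states.

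Human mtDNA encodes subunits of the respiratory chain and of ATP synthase together with the RNAs that translate them, and all other mitochondrial proteins come from nuclear genes. Cells without it have no working respiratory chain, make their ATP by glycolysis, and need uridine and pyruvate because pyrimidine synthesis and the reoxidation of NADH otherwise depend on respiration. A549 cells carry an inactive KEAP1, the inhibitor of the transcription factor NRF2, and are known for very high levels of NRF2-driven detoxifying enzymes.

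Expression was read with probe sets, sets of short oligonucleotides that match the 3′ end of a transcript, as signals on a linear scale that the authors had quantile-normalised over the 6 arrays. The median signal of an array was 31.3 or 31.4. The brightest probe sets by mean log2 signal were kept, as many as the study had kept by its own detection calls, and the lowest of them had a geometric mean of 19.1. Between replicates Pearson's r across these probe sets was 0.938 to 0.953 in ρ° and 0.915 to 0.952 in ρ+ cells, and between a ρ° and a ρ+ array it was 0.870 to 0.908. The ρ° C array was the nearest to the ρ+ arrays, at 0.899 to 0.908 against 0.870 to 0.884 for ρ° A and B. In limma at an adjusted p under 0.05, 741 probe sets were higher in ρ° cells (5.66%) and 681 were lower (5.20%), where 1834 and 1750 had an unadjusted p under 0.05. With 1 probe set a gene, 409 of 8030 genes rose (5.09%) and 485 fell (6.04%), and the median log2 change of all genes was −0.03. These counts depended on single arrays. Without the ρ° A array 202 probe sets rose and 223 fell, without ρ° B the counts were 325 and 308, without ρ+ B they were 302 and 215, and without ρ+ A 402 fell. Over all 6 such fits, 189 rises and 185 falls passed whichever array was left out. Genes named with a call below are among those that passed in every one of these 6 fits, unless stated otherwise. Values are given in the order A, B and C for ρ° and then for ρ+ cells, changes are ρ° relative to ρ+ on the log2 scale with the standard error of the fit (n = 3 arrays a group), and a fold is given only where both group means reach a signal of 50. With 3 arrays a group an exact permutation cannot go below p = 0.1, so calls rest on limma's pooled spread. In bulk RNA, fewer cells that express a gene and less RNA per cell cannot be told apart.

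**Figure D1:**
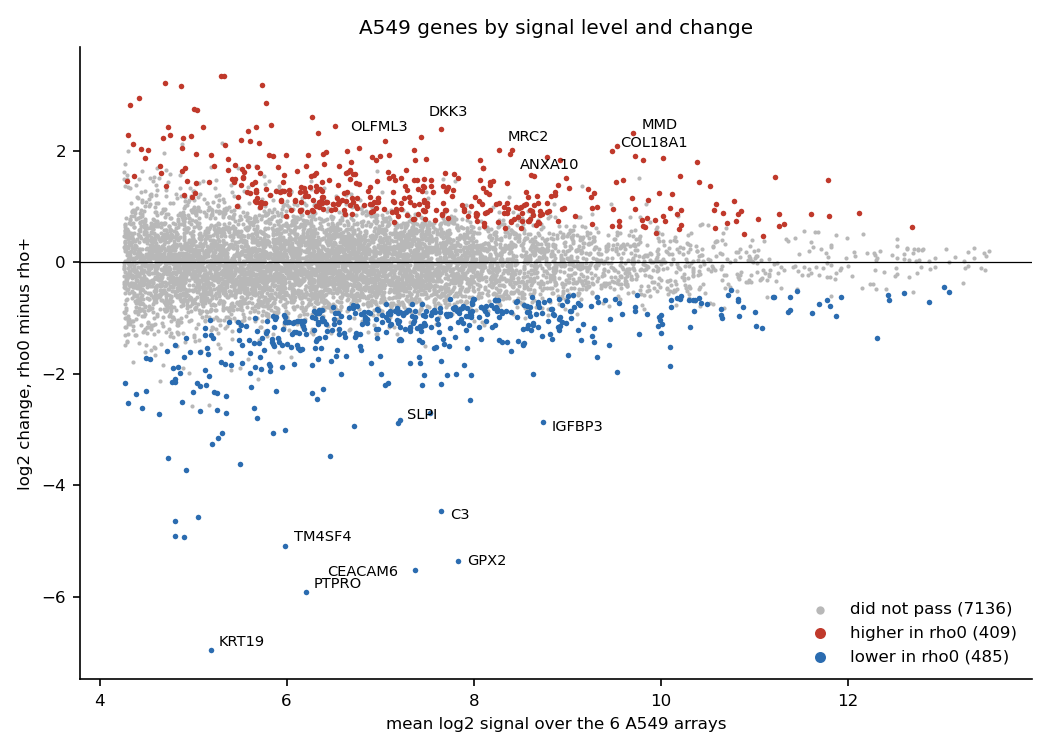
Log2 change (ρ° minus ρ+, vertical axis) of 8030 A549 genes against their mean log2 signal over the 6 arrays (horizontal axis), 1 point a gene. Coloured points passed limma's adjusted p under 0.05, 409 higher and 485 lower, and the points furthest from 0 are genes that were lower in ρ° cells, down to −6.96 for KRT19.

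The A549 label was checked against 18 marker genes of this line, of which 17 are on the array and 11 had a signal of at least 100 on all 6 arrays. Their summed signal was 49680 to 59302 in ρ° and 65989 to 67498 in ρ+ cells, and KRT19, CEACAM6 and SLPI were among those that fell. EPCAM, an epithelial adhesion molecule, was at or below 12.8 on every array. Markers of osteosarcoma and mesenchyme summed to 293 to 372 in ρ° and 352 to 396 in ρ+ cells over 14 genes, with SPARC and COL6A3, high in 143BTK−, at or below 34.5 and 18.5. Several other members were low in 143BTK− too, such as COL1A2 at 5.9 to 21.1 and COL3A1 at 4.3 to 14.1. The sum alone thus does not tell the lines apart. Blood cell genes summed to 112 to 186 and 132 to 227, with PTPRC at or below 10.9, and endothelial genes to 71.7 to 73.4 and 73.0 to 105, with CDH5 at or below 8.4. The highest members of these 3 lists were COL1A1 at 61.6 to 105 in ρ° and 54 to 87.9 in ρ+ cells, CD14 at up to 71.3 and PECAM1 at up to 47.9, and their part in the results was not tested.

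Genes were ranked by their change with group means under a signal of 50 raised to 50. Only genes whose ρ° and ρ+ arrays did not overlap entered this ranking. The lack of overlap in the genes named from it thus follows from the choice. KRT19, a keratin of simple epithelia, had signals of 2.1, 5.5 and 3 on the ρ° arrays and 373, 381 and 471 on the ρ+ arrays (log2 change −6.96 ± 0.38, adjusted p = 1.2e-05). CEACAM6, a cell surface adhesion glycoprotein of epithelia and of many carcinomas, had signals of 29.6, 20 and 24.7 against 998, 1269.8 and 1102 (log2 change −5.51 ± 0.22, adjusted p = 2.04e-06). GPX2, the glutathione peroxidase of epithelia, had signals of 40.3, 21.9 and 51.3 against 1512, 1512 and 1375 (log2 change −5.36 ± 0.29, adjusted p = 1.2e-05). For all 3 genes every ρ° array had a signal of 51.3 or less and every ρ+ array one of 373 or more, so the groups were far apart, and no fold is given because the ρ° mean was under 50. C3, the central component of the complement cascade, had signals of 71.3, 52.7 and 21.2 against 1023, 746 and 1099.5 (log2 change −4.45 ± 0.39, adjusted p = 0.000424). TM4SF4, a membrane protein with 4 transmembrane segments, had signals of 7.5, 20.7 and 8.3 against 286, 286 and 614 (log2 change −5.08 ± 0.43, adjusted p = 0.000424). The ρ° arrays of both genes stayed at or under a signal of 71.3. PTPRO, a receptor tyrosine phosphatase, had signals of 8.9, 8.9 and 10.8 against 937, 890.2 and 224 (log2 change −5.91 ± 0.48, adjusted p = 0.0003), with the ρ+ C array far under the other 2 but still apart from the ρ° arrays. Its other probe set had a log2 change of 0.20, so the fall was seen with 1 of 2 probe sets.

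Another 6 genes completed the 12 with the largest fall. IGFBP3, which binds and carries insulin-like growth factors, had signals of 159, 167 and 149.8 against 981, 1002 and 1587 and was 7.32-fold lower (log2 change −2.87 ± 0.22, adjusted p = 0.000171). SLPI, a secreted inhibitor of leukocyte elastase, had signals of 48.6, 74.7 and 43.1 against 475, 424 and 312 and was 7.38-fold lower (log2 change −2.88 ± 0.27, adjusted p = 0.000451). SLC27A2, which takes up fatty acids and links very long ones to coenzyme A, had signals of 54.3, 51.4 and 61.4 against 370.0, 405 and 409.5 and was 7.10-fold lower (log2 change −2.83 ± 0.20, adjusted p = 0.000106). The 3 ρ° arrays of SLC27A2 and IGFBP3 were within a narrow range, and in none of the 3 genes did the groups overlap. TFPI2, an inhibitor of plasmin and other serine proteases, had signals of 61.9, 69 and 90.3 against 382, 399 and 690.4 and was 6.49-fold lower (log2 change −2.70 ± 0.27, adjusted p = 0.000561). CAMK2N1, an inhibitor of the calcium and calmodulin dependent kinase II, had signals of 20.1, 44.8 and 20.7 against 238, 291 and 367 (log2 change −3.47 ± 0.33, adjusted p = 0.0005). PIP, a protein secreted by exocrine glands, had signals of 34.9, 50.7 and 31.2 against 219.6, 281 and 398 (log2 change −2.93 ± 0.29, adjusted p = 0.000535). In these 3 genes the ρ+ C array was the highest of the 6, and the lowest ρ+ array stood above the highest ρ° array. Second probe sets of CEACAM6, IGFBP3, SLC27A2 and TFPI2 were lower too, with log2 changes of −7.16, −2.08, −2.34 and −3.30.

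By the same ranking MMD was among the genes that rose most. MMD, a membrane protein first described in maturing macrophages, had signals of 1819.7, 1814 and 1972 on the ρ° arrays and 321, 311 and 524 on the ρ+ arrays and was 5.0-fold higher (log2 change 2.32 ± 0.21, adjusted p = 0.000436). DKK3, a secreted glycoprotein of the Dickkopf family, had signals of 457, 548.9 and 389 against 52.2, 74.4 and 175 and was 5.24-fold higher (log2 change 2.39 ± 0.38, adjusted p = 0.00484). Its 4 other probe sets ranged from −0.58 to 2.76. OLFML3, a secreted olfactomedin domain glycoprotein, had signals of 353, 278 and 548 against 85.1, 64 and 91.8 and was 4.75-fold higher (log2 change 2.25 ± 0.28, adjusted p = 0.00127). No ρ+ array reached the lowest ρ° array in any of them, and for MMD and DKK3 the ρ+ C array was the closest to the ρ° arrays. MAN2B1, the lysosomal alpha-mannosidase, had signals of 254, 342 and 256 against 63.9, 48.1 and 78.9 and was 4.51-fold higher (log2 change 2.17 ± 0.25, adjusted p = 0.0009). GAA, the lysosomal glucosidase that degrades glycogen, had signals of 795, 669 and 538 against 188, 165 and 160.4 and was 3.86-fold higher (log2 change 1.95 ± 0.20, adjusted p = 0.000616). FBXO2, the part of a ubiquitin ligase that binds glycoproteins with high-mannose chains, had signals of 242, 278 and 164 against 56.2, 55.3 and 50.8 and was 4.12-fold higher (log2 change 2.04 ± 0.25, adjusted p = 0.00114). All ρ+ arrays of these 3 genes lay well under the ρ° arrays.

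MRC2, an endocytic receptor for collagen, had signals of 709, 729 and 465 against 150.4, 154 and 157 and was 4.04-fold higher (log2 change 2.02 ± 0.21, adjusted p = 0.000627), and its other probe set had a log2 change of 2.14. COL18A1, the basement membrane collagen XVIII, had signals of 1609.8, 1439 and 1245 against 599.5, 411 and 186 and was 3.98-fold higher (log2 change 1.99 ± 0.35, adjusted p = 0.00726). ANXA10, an annexin that binds phospholipids, had signals of 661, 695 and 684 against 159, 153 and 199.7 and was 4.02-fold higher (log2 change 2.01 ± 0.18, adjusted p = 0.000436). For ANXA10 both groups were tight, while the COL18A1 signals of the ρ+ arrays spread widely below the ρ° arrays. PMAIP1 (Noxa), a BCL2 family protein that promotes apoptosis, had signals of 376, 298 and 325 against 128, 84.9 and 50.4 and was 4.05-fold higher (log2 change 2.02 ± 0.31, adjusted p = 0.00434). DCBLD2, a membrane protein related to neuropilins, had signals of 319.7, 103 and 299 against 38.1, 31.5 and 50.9 (log2 change 2.44 ± 0.41, adjusted p = 0.00582). ASMTL, a pseudoautosomal gene, had signals of 249.5, 237 and 135 against 43.3, 58.3 and 49.5 (log2 change 2.0 ± 0.28, adjusted p = 0.00269). For DCBLD2 and ASMTL the ρ+ mean was under 50 and no fold is given, and for DCBLD2 the ρ° B array lay nearer to the ρ+ arrays than to the other ρ° arrays on the log scale. All 24 genes kept their direction and their call in the 17 other fits that were run for them. These include a fit of all 12 arrays and the centring of each chromosome. They also include the 6 left-out fits that had served to choose the genes, where a call could not be lost.

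**Figure D2:**
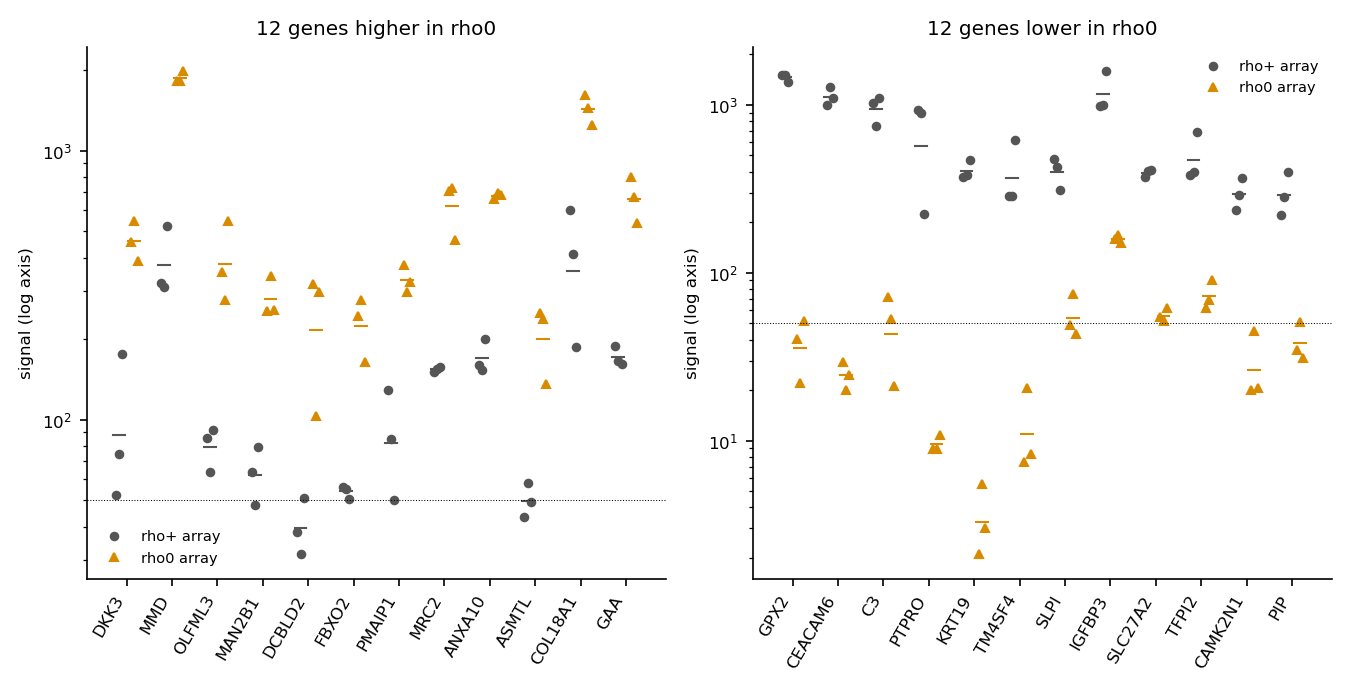
Signal on each of the 6 A549 arrays (log axis) of the 12 genes that rose most (left) and the 12 that fell most (right), circles for ρ+ arrays, triangles for ρ° arrays, short lines for the geometric mean of 3 arrays and a dotted line at a signal of 50. The triangles and circles of a gene do not overlap, which was a condition for naming it. Most ρ° signals of the lower genes lie at or under the dotted line.

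To show the start regions of genes at both ends of the ranking, the 250 bases before the RefSeq start (GRCh38.p14) are given 5′ to 3′ on the gene's strand for GPX2 (chr14:64942746-64942995, minus strand), CEACAM6 (chr19:41755280-41755529, plus strand), TM4SF4 (chr3:149474447-149474696, plus strand) and ANXA10 (chr4:168092287-168092536, plus strand). Capitals mark the letters of the antioxidant response element (TGACNNNGC, here as its reverse complement) in GPX2 and those of the TATA box (TATAAA) in the other 3. No other gene named above with a promoter in the RefSeq table held TATAAA. Most of them held neither of these motifs, so the windows shown are not typical of the named genes. TM4SF4 also holds a match to the antioxidant response element, and CEACAM6 one to the hypoxia response element (ACGTG), neither of them marked.
GPX2: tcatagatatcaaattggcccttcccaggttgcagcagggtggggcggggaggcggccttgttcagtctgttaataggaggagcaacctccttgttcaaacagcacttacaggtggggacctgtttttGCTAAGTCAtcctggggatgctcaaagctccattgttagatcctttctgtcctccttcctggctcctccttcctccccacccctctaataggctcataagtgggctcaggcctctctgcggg
CEACAM6: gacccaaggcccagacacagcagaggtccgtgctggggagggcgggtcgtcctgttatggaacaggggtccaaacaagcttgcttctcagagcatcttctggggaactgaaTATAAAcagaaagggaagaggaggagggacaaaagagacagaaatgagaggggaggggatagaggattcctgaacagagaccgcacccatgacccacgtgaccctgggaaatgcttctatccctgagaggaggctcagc
TM4SF4: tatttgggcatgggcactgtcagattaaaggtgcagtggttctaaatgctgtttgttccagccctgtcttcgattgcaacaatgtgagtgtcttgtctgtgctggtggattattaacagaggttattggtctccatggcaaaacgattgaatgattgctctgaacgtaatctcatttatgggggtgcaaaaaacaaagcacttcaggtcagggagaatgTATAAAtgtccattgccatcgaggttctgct
ANXA10: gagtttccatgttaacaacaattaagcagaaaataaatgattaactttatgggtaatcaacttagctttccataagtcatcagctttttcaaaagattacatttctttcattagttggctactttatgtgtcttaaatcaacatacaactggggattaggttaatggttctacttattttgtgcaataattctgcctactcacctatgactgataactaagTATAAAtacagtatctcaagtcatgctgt
The marked letters begin 122 bases before the start in GPX2, 139 in CEACAM6, 31 in TM4SF4 and 29 in ANXA10. Of the 8030 genes, 6640 had a promoter in the RefSeq table (250 bases before to 50 after the start), as had 345 of the 409 that rose and 390 of the 485 that fell. The letters TATAAA stood on either strand in 5.96% of all promoters, in 5.8% of those of genes that rose and in 6.15% of those of genes that fell. The antioxidant response element, bound by NRF2, stood in 15.7%, 14.8% and 17.2%. The hypoxia response element stood in 26.9%, 25.5% and 25.6%, and the element bound by ATF4 (TGATGNAA) in 1.76%, 1.74% and 1.79%. The shares in genes that rose or fell were thus near those of all genes, and a match of letters is a description of the window and no binding site.

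The response was further described with 48 lists of genes, each read against the shares of all genes, 5.09% that rose and 6.04% that fell. The lists were written with earlier results of these data known. A share above that of all genes can thus follow from how a list was written, and no list was tested. The share that fell was highest in sterol synthesis, glycolysis, the airway surface, the metallothioneins and cell division, and the share that rose was highest in lysosomal genes, adhesion molecules and keratins and junction proteins. In the last of these as many genes fell as rose. Histone genes (0 of 15) and cytosolic aminoacyl-tRNA synthetases (0 of 17) held no gene that passed.

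**Figure D3:**
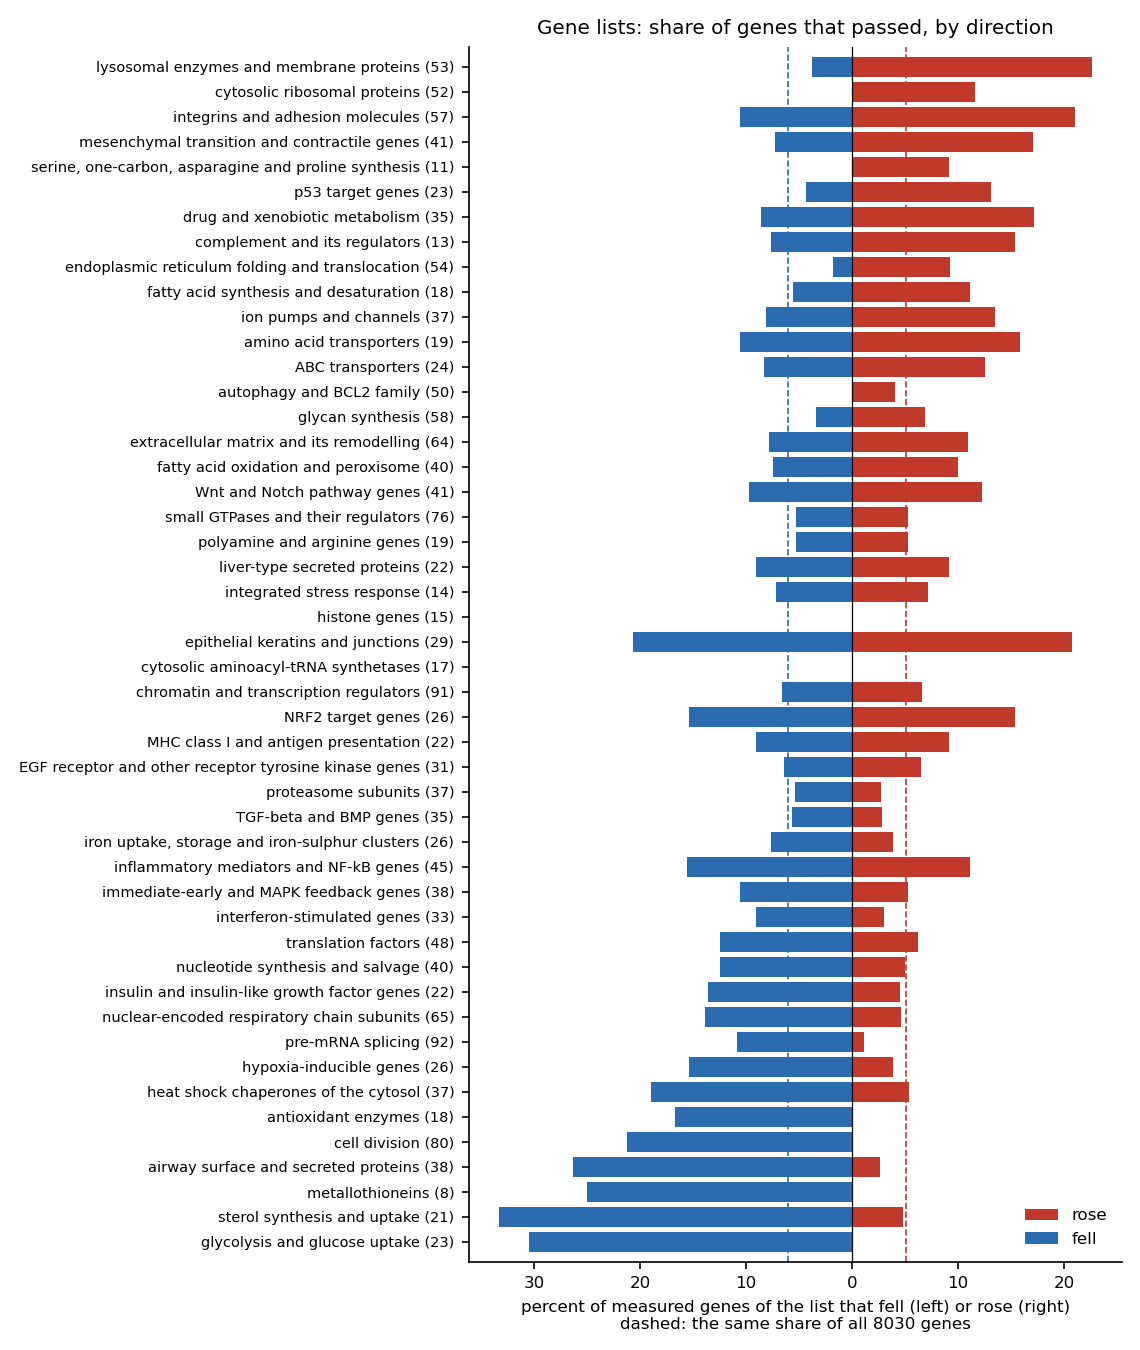
Share of the measured genes of each list that rose (red, right) or fell (blue, left) in ρ° cells at limma's adjusted p under 0.05, with the number of measured genes in brackets, and dashed lines for all 8030 genes (5.09% and 6.04%). Sterol synthesis and glycolysis stand at the lower end, with 7 genes each that fell, and lysosomal genes at the upper end, with 12 that rose.

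Genes of airway surface proteins and airway secretions fell more often than genes at large. Of 38 measured genes 10 fell and 1 rose, with a median log2 change of −0.49, and 8 of the falls passed with every array left out in turn. Beside CEACAM6, TM4SF4 and SLPI, SCNN1A, the alpha subunit of the epithelial sodium channel, had signals of 97.7, 87.6 and 149 against 355, 352 and 414 and was 3.43-fold lower (log2 change −1.78 ± 0.24, adjusted p = 0.00213). Other SCNN1A probe sets went from −0.44 to 0.76, and the mean of its kept probe sets had a log2 change of −0.49 (adjusted p = 0.212). The other genes of the list that fell in every left-out fit were AGR2, LCN2, TSPAN8 and CEACAM1 (whose other probe sets went from −2.40 to 0.08), and the riser was AQP3, a channel for water and glycerol at 216, 149.5 and 151 against 36.7, 37.4 and 58.7 (log2 change 1.97 ± 0.27, adjusted p = 0.00261). Surfactant and airway cell genes of differentiated lung had low signals in both states. The summed signal of 9 such genes was 115 to 162 in ρ° and 142 to 235 in ρ+ cells, NKX2-1, the lung transcription factor, did not go above 9.6, and the highest member, the surfactant gene SFTPB, reached 85.2.

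Keratins and junction proteins moved in both directions. Of 29 measured genes 6 rose and 6 fell (median −0.36), of which 1 and 2 passed in every left-out fit. Without ρ° A or ρ+ B 1 rose and 2 fell, without ρ° B 2 and 2, without ρ° C 2 and 4, and without ρ+ A 3 and 3. KRT18, the main type I keratin of simple epithelia, had signals of 2846, 2365 and 4824 against 8258, 7017 and 9408 and was 2.56-fold lower (log2 change −1.36 ± 0.23, adjusted p = 0.00652), with the ρ° C array the highest of the 3 and still below the ρ+ arrays. PERP, a protein of desmosomes, had signals of 847, 759 and 966 against 290.0, 285 and 327 and was 2.84-fold higher (log2 change 1.51 ± 0.17, adjusted p = 0.0009), and its 2 groups were each tight. CDH1, which encodes E-cadherin, had signals of 144, 144 and 84.2 on the ρ° arrays and 224, 221 and 372 on the ρ+ arrays (log2 change −1.13, adjusted p = 0.0333), a call that held in only 1 of the 6 left-out fits. The second CDH1 probe set had a log2 change of 0.38.

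Adhesion molecules moved in both directions, and more of them rose. Of 57 measured genes 12 rose and 6 fell (median 0.20), with 7 and 3 in every left-out fit, and 3 fell without ρ° A, ρ° B or ρ+ B. ITGB4, the integrin beta subunit of hemidesmosomes, had signals of 826, 774 and 944 against 211, 238 and 239.9 and was 3.69-fold higher (log2 change 1.88 ± 0.17, adjusted p = 0.000436). ITGA3, the alpha subunit of a laminin receptor, had signals of 889, 719.9 and 501 against 294, 209.6 and 206 and was 2.94-fold higher (log2 change 1.55 ± 0.24, adjusted p = 0.00468). Neither integrin overlapped between the groups, and the 3 other ITGB4 probe sets were higher too (0.98 to 3.00). ROBO1, a receptor of the guidance protein SLIT, had signals of 159.8, 251 and 171 against 32.1, 24.8 and 38.6 (log2 change 2.60 ± 0.27, adjusted p = 0.000627), and VCAM1, which binds leukocytes to the vessel wall, had signals of 163, 194 and 65.2 against 11.8, 8.3 and 20.7 (log2 change 3.33 ± 0.47, adjusted p = 0.00285). Against these rises NRCAM, a neuronal adhesion molecule, had signals of 62, 98.9 and 88.7 against 343, 376 and 408 and was 4.59-fold lower (log2 change −2.20 ± 0.23, adjusted p = 0.000616, other probe set −1.04). ALCAM, MCAM and NRP1 also rose in every left-out fit, with log2 changes of 1.24, 1.48 and 1.44 (other probe sets of NRP1 0.48 and 0.70), and CNTN1 fell, with one of −2.61.

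**Figure D4:**
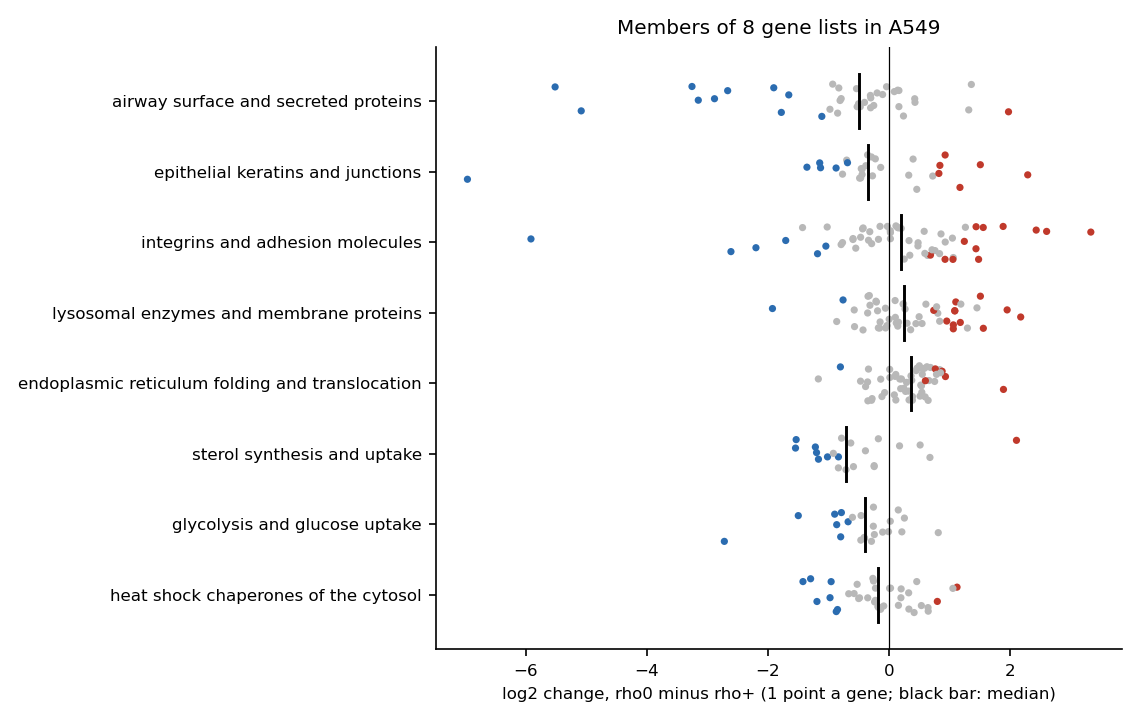
Log2 change (ρ° minus ρ+) of every measured member of 8 gene lists, 1 point a gene, red or blue where it passed limma's adjusted p under 0.05 and grey where it did not, with a black bar at the median. Members of sterol synthesis and glycolysis lie mostly left of 0, those of the endoplasmic reticulum and the lysosome mostly right of it, and several airway surface genes lie far to its left, with KRT19 furthest among the keratins.

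Matrix and mesenchymal genes were mixed. Of 64 matrix genes 7 rose and 5 fell (median −0.05), and of 41 genes of the mesenchymal transition and of contractility 7 rose and 3 fell (median −0.04). Beside OLFML3 and COL18A1, 2 elastic fibre proteins moved the other way. FBN2, a fibrillin, had signals of 12.4, 9.6 and 18.4 against 152, 145 and 182 (log2 change −3.61 ± 0.31, adjusted p = 0.000424), and EFEMP1, a fibulin, had signals of 14.2, 1.7 and 5.4 against 134, 129.5 and 207 (log2 change −4.92 ± 0.65, adjusted p = 0.00206). The ρ° arrays of both were all at or under a signal of 18.4. PLAU, the urokinase that activates plasminogen, had signals of 753, 885 and 568 against 328, 309 and 274 and was 2.39-fold higher (log2 change 1.26 ± 0.20, adjusted p = 0.00506). Vimentin (VIM, log2 change 0.49, adjusted p = 0.166), fibronectin (FN1, −0.03, 0.941) and the transition factor ZEB1 (0.75, 0.091) did not pass. TAGLN2, a binder of actin, had signals of 352, 374 and 329 against 985, 1033 and 765 and was 2.62-fold lower (log2 change −1.39 ± 0.18, adjusted p = 0.00163), with no overlap, while its other probe set had a log2 change of −0.33.

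Of 41 genes of the Wnt and Notch pathways 5 rose and 4 fell. DKK1, a secreted inhibitor of Wnt signalling, had signals of 3739, 3854 and 4584 on the ρ° arrays and 1263, 1188 and 1842 on the ρ+ arrays and was 2.88-fold higher (log2 change 1.53 ± 0.18, adjusted p = 0.00107). JAG1, a ligand of Notch, had signals of 92.3, 97.6 and 86.2 against 386, 405 and 213 and was 3.50-fold lower (log2 change −1.81 ± 0.26, adjusted p = 0.00326). NOTCH3, one of its receptors, had signals of 175, 169 and 104 against 45.8, 30.2 and 41.1 (log2 change 1.92 ± 0.29, adjusted p = 0.00353). The ligand was thus lower and this receptor higher, although other probe sets of both genes disagreed, with a lowest and highest change of −2.01 and 0.37 over 3 for JAG1 and of −0.70 for the other one of NOTCH3. Of 35 genes of TGF-beta and BMP signalling 1 rose and 2 fell, and of 31 receptor tyrosine kinase genes 2 rose and 2 fell. EREG, a ligand of the EGF receptor, had signals of 346, 326 and 269 against 90.1, 97.2 and 77.4 and was 3.55-fold higher (log2 change 1.83 ± 0.21, adjusted p = 0.0009). In the fit of all 12 arrays the adjusted p was 0.06 for JAG1, 0.0586 for DKK1, 0.0682 for EREG and 0.0671 for PLAU, above the threshold.

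Binding proteins of insulin-like growth factors moved apart from each other. Beside the fall of IGFBP3, IGFBP2 had signals of 36.9, 18.2 and 59.9 against 295, 217 and 104 (log2 change −2.46 ± 0.47, adjusted p = 0.0107), and its ρ° mean was under 50. IGFBP4 had signals of 5494, 6146 and 6101 against 2896, 1594 and 2068 and was 2.78-fold higher (log2 change 1.48 ± 0.20, adjusted p = 0.00204), with every ρ° array far above the ρ+ arrays. Over the list of 22 genes of this pathway 1 rose and 3 fell (median 0.14).

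Lysosomal genes rose more often than genes at large. Of 53 measured enzymes and membrane proteins 12 rose and 2 fell, the median was 0.24, and 5 of the rises passed with every array left out. With 1 array left out 5 rose without ρ° A or ρ° B, and 7 without ρ+ A or ρ+ B. Beside MAN2B1 and GAA, GALC, which degrades galactosylceramide, had signals of 235, 254 and 206 against 70.3, 76.7 and 98.9 and was 2.84-fold higher (log2 change 1.51 ± 0.22, adjusted p = 0.00326). CTSC, a cathepsin that activates granule serine proteases, had signals of 894, 1018 and 846 against 349, 413 and 463 and was 2.26-fold higher (log2 change 1.18 ± 0.18, adjusted p = 0.00353), and CTSA, a carboxypeptidase that protects beta-galactosidase, had signals of 506, 428 and 413 against 211, 235 and 199 and was 2.09-fold higher (log2 change 1.06 ± 0.18, adjusted p = 0.00675). None of the 3 overlapped between the groups, and GALC had adjusted p = 0.0740 in the fit of all 12 arrays. Not every member followed, since the proteases CTSB (log2 change −0.57, adjusted p = 0.0616) and CTSD (−0.32, 0.537) had lower means and did not pass. GPNMB, a glycoprotein of lysosomes and melanosomes, fell, at 18.1, 13.1 and 24.4 against 65.1, 65.7 and 74.2 (log2 change −1.93 ± 0.33, adjusted p = 0.00652).

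Genes of protein folding and translocation in the endoplasmic reticulum had a median log2 change of 0.37, the highest of the lists with over 50 measured genes. Of 54 genes 5 rose and 1 fell, of which 2 and 0 passed in every left-out fit. HSP90B1, the chaperone GRP94, had signals of 320.2, 192 and 205 against 53.2, 95.5 and 48.7 and was 3.70-fold higher (log2 change 1.89 ± 0.31, adjusted p = 0.00528). PDIA6, a disulphide isomerase, had signals of 1631, 1579 and 1733 against 1015, 860.4 and 738 and was 1.91-fold higher (log2 change 0.93 ± 0.16, adjusted p = 0.00675). HSPA5, the chaperone BiP, had a log2 change of 0.29 (adjusted p = 0.471) and did not pass. Of 58 genes of glycan synthesis 4 rose and 2 fell (median 0.27), with none in every left-out fit. Of 37 heat shock chaperones of the cytosol 7 fell and 2 rose (median −0.18), and HSPB8, a small heat shock protein, had signals of 41.7, 51.9 and 48.7 against 100.1, 113 and 138 (log2 change −1.30 ± 0.24, adjusted p = 0.00933). HSPB8 was the only 1 of these 9 to pass in every left-out fit, and its adjusted p was 0.297 in the fit of all 12 arrays.

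Genes of sterol synthesis and uptake fell more often than genes at large. Of 21 measured genes 7 fell and 1 rose, and the median log2 change was −0.71. The number that fell was 4 without ρ° A, ρ° B or ρ+ B, and 8 without ρ° C or without ρ+ C. IDI1, which makes dimethylallyl diphosphate, had signals of 123, 115 and 205 against 387, 442 and 423 and was 2.92-fold lower (log2 change −1.55 ± 0.24, adjusted p = 0.00465). MSMO1, which removes methyl groups from sterol precursors, had signals of 103, 113 and 120.4 against 345, 313 and 316 and was 2.90-fold lower (log2 change −1.53 ± 0.19, adjusted p = 0.0013). SQLE, which epoxidises squalene, had signals of 226, 272 and 339.5 against 670.1, 601 and 586 and was 2.24-fold lower (log2 change −1.17 ± 0.20, adjusted p = 0.00601). The 3 ρ+ arrays of each gene were close together and above all ρ° arrays, and the mean of the kept probe sets of SQLE had a log2 change of −0.71 (adjusted p = 0.0627). TM7SF2, a sterol reductase, went the other way at 83.4, 112 and 63.8 against 16.5, 14.3 and 31.8 (log2 change 2.10 ± 0.38, adjusted p = 0.00794). EBP, HSD17B7, DHCR7 and FDPS made up the 7 that fell, each with a call that was lost without at least 1 of the arrays. The regulators SREBF1 (log2 change 0.51, adjusted p = 0.225) and SREBF2 (0.17, 0.61) did not pass. In fatty acid synthesis 2 of 18 genes rose and 1 fell, and in fatty acid oxidation and the peroxisome 4 of 40 rose and 3 fell.

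Glycolysis was another list in which falls outnumbered rises. Of 23 genes of glycolysis and glucose uptake 7 fell and 0 rose (median −0.41), with 3 in every left-out fit. It was 3 without ρ° A or ρ+ B and 4 without ρ° B or ρ+ A. ALDOA, the aldolase of most tissues, had signals of 2859, 2291 and 3132 against 5355, 4516 and 4364 and was 1.73-fold lower (log2 change −0.79 ± 0.15, adjusted p = 0.0113). ALDOA lies on chromosome 16, on which 12.0% of probe sets fell, and with each array centred on the mean of a chromosome its log2 change was −0.46 (adjusted p = 0.167). ENO3, the enolase of muscle, had signals of 68, 64.8 and 64 against 196, 201 and 162 and was 2.83-fold lower (log2 change −1.50 ± 0.21, adjusted p = 0.00269), and ALDOC, the aldolase of brain, had signals of 9.5, 7.1 and 13.3 against 72.4, 48.9 and 72.5 (log2 change −2.72 ± 0.40, adjusted p = 0.00326). The groups of these 3 genes did not overlap. GPI, PGAM1, SLC2A1 and PKM also fell, with calls that held in 2 or 3 of the 6 left-out fits. The glycolytic LDHA (log2 change −0.26, adjusted p = 0.328), PGK1 (−0.47, 0.123) and GAPDH (−0.11, 0.581) did not pass.

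Genes induced by low oxygen followed no single direction. Of 26 genes 1 rose and 4 fell (median −0.21), and 2 of the falls, ALDOC and SLC2A1, are glycolytic genes as well. MXI1, an antagonist of MYC, was the riser, at 275, 258 and 216 against 65.3, 58 and 76.6, and was 3.75-fold higher (log2 change 1.91 ± 0.22, adjusted p = 0.0009). VEGFA, the vascular growth factor, had a log2 change of 0.42 (adjusted p = 0.357), and BNIP3, a mitophagy receptor, one of 0.28 (0.548).

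Among targets of NRF2, as many rose as fell (4 and 4 of 26, median 0.04). TXN, thioredoxin, had signals of 1389.8, 1504 and 1433 against 2859, 3665 and 3376 and was 2.28-fold lower (log2 change −1.19 ± 0.14, adjusted p = 0.00106). PIR, an iron-binding nuclear protein, had signals of 532, 380.3 and 408 against 148, 178 and 196 and was 2.52-fold higher (log2 change 1.33 ± 0.21, adjusted p = 0.00459), and ABCC2, an exporter of conjugated drugs, had signals of 568, 476 and 566 against 258, 206 and 151 and was 2.67-fold higher (log2 change 1.42 ± 0.22, adjusted p = 0.00478). ABCC2 had adjusted p = 0.290 in the fit of all 12 arrays. The glutamate-cysteine ligase subunits GCLM (log2 change −0.04, adjusted p = 0.911) and GCLC (0.17, 0.7) and the quinone reductase NQO1 (−0.47, 0.0811) did not pass. Of 26 such targets 19 had a promoter in the table, and 6 of these held the antioxidant response element. Of 18 genes in the list of antioxidant enzymes 3 fell, GPX2 among them, and 0 rose, with SOD1 at 0.08 (adjusted p = 0.778) and CAT at 0.45 (0.209). GPX2 was not in the list of NRF2 targets, although a match to the antioxidant response element stands before its start. The counts of 4 and 4 thus leave out its fall.

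Enzymes that act on drugs and aldehydes included large changes in both directions. Of 35 measured genes 6 rose and 3 fell (median 0.27), with 3 and 2 in every left-out fit. ALDH3A2, which oxidises fatty aldehydes, had signals of 2291, 2053 and 1666 against 404, 594 and 673 and was 3.65-fold higher (log2 change 1.87 ± 0.21, adjusted p = 0.0009, other probe sets 0.79 and 1.75). CYP24A1, which inactivates vitamin D, had signals of 977, 1005 and 777 against 165, 239 and 435 and was 3.55-fold higher (log2 change 1.83 ± 0.31, adjusted p = 0.00601). SULT1A1, a sulphotransferase of phenols, had signals of 144, 119 and 111 against 460.2, 519.8 and 544 and was 4.09-fold lower (log2 change −2.03 ± 0.19, adjusted p = 0.0005). POR, which passes electrons to cytochromes P450, had signals of 147, 121 and 156 against 381, 319 and 369 and was 2.52-fold lower (log2 change −1.34 ± 0.20, adjusted p = 0.00331). All 4 were apart on every array. Of 24 ABC transporters 3 rose and 2 fell, and ABCG2, an exporter of drugs and urate, had signals of 50.4, 66.7 and 108 against 225, 232 and 230.3 and was 3.21-fold lower (log2 change −1.68 ± 0.28, adjusted p = 0.00575), with the ρ° C array the nearest to the ρ+ arrays. Metallothioneins, small proteins that bind zinc and copper, had a median of −0.55 over 8 genes, of which 2 fell, with calls that were lost without several of the arrays. With each array centred on the mean of a chromosome, 0 of them fell. Probe sets of metallothioneins share sequence, so their genes cannot be read apart with certainty.

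In the integrated stress response the factor ATF4 raises amino acid synthesis and transport. Of 14 measured genes of this list 1 rose and 1 fell (7.14% each, median 0.01). These shares were near those of all genes, 5.09% and 6.04%. TRIB3, a pseudokinase induced by ATF4, had signals of 350.0, 343 and 271 against 637, 634 and 901 and was 2.24-fold lower (log2 change −1.16 ± 0.20, adjusted p = 0.00717). NUPR1, a stress-induced chromatin protein, had signals of 176, 204 and 124 on the ρ° arrays and 57, 74.1 and 18.7 on the ρ+ arrays (log2 change 1.94, adjusted p = 0.0242), a call that held in 4 of 6 left-out fits. ATF4 had a log2 change of 0.31 (adjusted p = 0.37), DDIT3 of −0.51 (0.252) and GDF15 of −0.01 (0.992), and none of them passed. Genes of serine, one-carbon, asparagine and proline synthesis had a median of 0.61 over 11 genes, of which 1 rose. The number that rose was 0 without ρ° A or ρ° B, and 5 with both C arrays left out. Single members such as ASNS (log2 change 0.82, adjusted p = 0.0647), PHGDH (0.65, 0.14) and PSAT1 (0.61, 0.178) did not pass, and the riser PCK2 (1.15, 0.0121) held in 4 of 6 left-out fits. Synthetases that charge tRNAs had a median of −0.01.

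Of 19 amino acid transporters 3 rose and 2 fell. SLC7A5, the transporter of large neutral amino acids, had signals of 342, 319 and 484 against 1727, 1365 and 1323 and was 3.90-fold lower (log2 change −1.96 ± 0.20, adjusted p = 0.000616). SLC7A7, an exchanger of cationic amino acids, had signals of 11.6, 19.3 and 49.3 against 147, 176 and 226 (log2 change −3.01 ± 0.46, adjusted p = 0.00382). SLC38A2, which takes up small neutral amino acids, had signals of 2008, 2061 and 2215 against 1136, 1232 and 942 and was 1.91-fold higher (log2 change 0.93 ± 0.15, adjusted p = 0.00515). The fall of SLC7A5 and the rise of SLC38A2 were each seen on all arrays. Of 40 genes of nucleotide synthesis and salvage 2 rose and 5 fell, with CDA, cytidine deaminase, at 35.5, 45.3 and 45.3 against 122, 135 and 112 (log2 change −1.55 ± 0.24, adjusted p = 0.0038, and adjusted p = 0.120 in the fit of all 12 arrays). ODC1, the first enzyme of polyamine synthesis, had signals of 420.4, 348 and 408 against 853, 997 and 710.1 and was 2.16-fold lower (log2 change −1.11 ± 0.18, adjusted p = 0.0055). Of 26 genes of iron uptake, storage and iron-sulphur clusters 1 rose and 2 fell, and LCN2, a protein that binds iron-loaded siderophores, had signals of 5.2, 17 and 24.1 against 90.1, 110.2 and 150.2 (log2 change −3.15 ± 0.52, adjusted p = 0.00528).

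Of 45 inflammatory mediators and NF-kB genes 5 rose and 7 fell (median −0.24), and 3 chemokines were among the falls. CCL2, which attracts monocytes, had signals of 3.4, 25 and 2.1 against 149.7, 182 and 101 (log2 change −4.64 ± 0.77, adjusted p = 0.00559). CXCL1, which attracts neutrophils, had signals of 55.1, 66.4 and 70.3 against 179, 212 and 294 and was 3.51-fold lower (log2 change −1.81 ± 0.25, adjusted p = 0.00236), and CXCL2, a close relative, had signals of 39.7, 28.3 and 40.8 against 139, 129 and 115 (log2 change −1.83 ± 0.25, adjusted p = 0.00244). The ρ° arrays of the 3 chemokines had a signal of 70.3 or less and the ρ+ arrays one of 101 or more, and CXCL1 had adjusted p = 0.120 in the fit of all 12 arrays. CXCL8 had a log2 change of −1.25 and did not pass (adjusted p = 0.144). TNFRSF21, a death receptor, had signals of 1341, 1482 and 1085 against 516, 447 and 429 and was 2.79-fold higher (log2 change 1.48 ± 0.17, adjusted p = 0.00103).

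Of 13 measured genes of complement 2 rose and 1 fell. Against the fall of C3, CLU, the secreted chaperone clusterin, had signals of 2596, 2528 and 2019 against 1099, 1147 and 619 and was 2.57-fold higher (log2 change 1.36 ± 0.23, adjusted p = 0.00641). In antigen presentation 2 of 22 genes rose and 2 fell, and FCGRT, the neonatal receptor of immunoglobulin G, had signals of 276, 276 and 171 against 75, 61.9 and 61.8 and was 3.57-fold higher (log2 change 1.83 ± 0.25, adjusted p = 0.00241). Among 33 genes induced by interferon 1 rose and 3 fell. LGALS3BP, a secreted ligand of galectins, had signals of 2907, 2614 and 2281 against 1470.4, 1059 and 1134 and was 2.14-fold higher (log2 change 1.10 ± 0.17, adjusted p = 0.00409), and APOL1 had signals of 30.2, 34.1 and 19.3 against 77.7, 130.0 and 107 (log2 change −1.92 ± 0.32, adjusted p = 0.00536). The medians of these lists were 0.06 and 0.19. In secreted proteins of the liver type 2 rose and 2 fell of 22, with BCHE, a cholinesterase of plasma, at 109, 75.4 and 71.6 against 13.6, 13.4 and 10.6 (log2 change 2.75 ± 0.33, adjusted p = 0.00107).

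In early response genes 2 rose and 4 fell of 38 (median −0.02). IER5 had signals from 108 to 137 on the ρ° arrays and from 305 to 548 on the ρ+ arrays and was 3.59-fold lower (log2 change −1.84 ± 0.26, adjusted p = 0.00265), and PHLDA1 had signals of 303, 327 and 389 against 112, 115 and 182 and was 2.54-fold higher (log2 change 1.35 ± 0.24, adjusted p = 0.00752). Of 23 targets of p53 3 rose and 1 fell, PMAIP1 the only 1 in every left-out fit, and CDKN1A, the inhibitor of cyclin-dependent kinases, had a log2 change of −0.12 (adjusted p = 0.863). Of 50 genes of autophagy and the BCL2 family 2 rose and 0 fell. Ion pumps and channels held 5 that rose and 3 that fell of 37. ATP1B1, the beta subunit of the sodium pump, had signals of 412, 672 and 679 against 2117, 2314 and 1872 and was 3.65-fold lower (log2 change −1.87 ± 0.21, adjusted p = 0.00082), and P2RX4, a channel opened by ATP, had signals of 283, 249.9 and 196 against 108, 65.3 and 80.6 and was 2.90-fold higher (log2 change 1.54 ± 0.25, adjusted p = 0.00528). KCNK1, a potassium channel, had signals of 14.1, 20.9 and 14 against 87.6, 98.8 and 131 (log2 change −2.70 ± 0.31, adjusted p = 0.0009).

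Falls outnumbered rises in genes of splicing and translation. Of 92 splicing genes 10 fell and 1 rose (median −0.23), and 2 of the falls passed in every left-out fit. The number that fell went from 2 without ρ+ B to 15 without ρ+ C, and was 5 when centred on the chromosome mean. LSM5, part of the protein ring on U6 RNA, had signals of 199.8, 238 and 227 against 652, 649.9 and 543 and was 2.77-fold lower (log2 change −1.47 ± 0.18, adjusted p = 0.00122). Of 48 translation factors 6 fell and 3 rose, while with both C arrays left out 8 fell and 8 rose. GSPT1, a termination factor, had signals of 209.7, 221 and 230.3 against 564, 608 and 681 and was 2.80-fold lower (log2 change −1.48 ± 0.17, adjusted p = 0.00101), with other probe sets at −1.10 and 0.32. EIF2S1, the alpha subunit of eIF2, had signals of 279, 271 and 314 against 694, 841 and 594 and was 2.44-fold lower (log2 change −1.29 ± 0.19, adjusted p = 0.00322). EIF4B, a cofactor of the initiation helicase, had signals of 1882, 1925 and 1368 against 762, 724 and 706 and was 2.33-fold higher (log2 change 1.22 ± 0.17, adjusted p = 0.00265, other probe sets 0.40 and 1.41). The mean of the kept probe sets of EIF2S1 had a log2 change of −0.72 (adjusted p = 0.0537). Cytosolic ribosomal proteins had a median of 0.10, and 6 of 52 rose, none of them in every left-out fit. Chromatin and transcription regulators held 6 rises and 6 falls in 91 genes, with HDAC5, a histone deacetylase, at 80, 113 and 53.2 against 21.7, 21.2 and 22.6 (log2 change 1.84 ± 0.33, adjusted p = 0.00794). Small GTPases and their regulators held 4 and 4 in 76, with RAB13, a GTPase of tight junction traffic, at 1351, 1646 and 1156 against 667, 657 and 574 and 2.17-fold higher (log2 change 1.12 ± 0.17, adjusted p = 0.0044), and proteasome subunits held 1 and 2 in 37.

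For context, falls outnumbered rises in the lists of cell division and of the respiratory chain. Of 80 genes of cell division 17 fell and 0 rose, with a median log2 change of −0.86, and 6 passed in every left-out fit. In 79 of the 80 genes the ρ° C array had the highest signal of the 3 ρ° arrays, as it did in 36.4% of all genes. Without ρ° C 38 fell, without ρ° A or ρ° B 6, without ρ+ B 7 and without ρ+ A 11, and why this array stood apart was not tested. FOXM1, a transcription factor of mitotic genes, had signals of 75.1, 87.9 and 170.3 against 378, 418 and 477 and was 4.06-fold lower (log2 change −2.02 ± 0.29, adjusted p = 0.00325). Of 65 nuclear genes of respiratory chain subunits 9 fell and 3 rose (median −0.06), with 2 of the falls and 0 of the rises in every left-out fit. Without ρ° A 2 fell and 0 rose, as when centred on the chromosome mean, and without ρ+ C 10 fell and 2 rose. NDUFA8, a subunit of complex I, had signals of 219, 167 and 192 against 411, 545 and 564 and was 2.62-fold lower (log2 change −1.39 ± 0.20, adjusted p = 0.00328). Of the probe sets with a listed gene, 0 were annotated to a gene of mtDNA, so the loss of mtDNA transcripts itself was not read here.

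Genes of some chromosomes moved together. The mean log2 signal of a chromosome's probe sets minus that of all others differed between ρ° and ρ+ arrays for 16 of 23 chromosomes in limma (69.6%). It was lower in ρ° cells for chromosome 16 (−0.35 ± 0.03, SE), 7 (−0.33 ± 0.02), 9 (−0.33 ± 0.02) and 8 (−0.29 ± 0.02), and the 3 ρ° arrays of each stood below the 3 ρ+ arrays. It was higher for chromosome 11 (0.22 ± 0.02), 18 (0.22 ± 0.04), 6 (0.18 ± 0.03), X (0.15 ± 0.02) and 3 (0.15 ± 0.02). Of the probe sets on chromosome 7, 14.5% fell and 0.992% rose, and of those on chromosome 11, 12.4% rose and 2.89% fell. The other 7 that passed moved by less, between −0.12 and 0.14. IGFBP3, TFPI2 and PIP lie on chromosome 7 and DKK3 on chromosome 11. With each array centred on the mean of a chromosome, all 24 genes named first kept their call, the number of probe sets that rose was 498, and the number that fell was 449 in place of 681. The study did not karyotype the ρ° cells in detail. From its own log2 ratios by chromosome it reported a similar average change on every chromosome in both lines, and no significant segmental change. It took this to exclude aneuploidies that were stable and clonal. The contrasts above set each chromosome against all others, over another choice of probe sets. They went from −0.35 on chromosome 16 to 0.22 on chromosome 11, and so were not alike on every chromosome. The part of copy number in them was not tested.

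**Figure D5:**
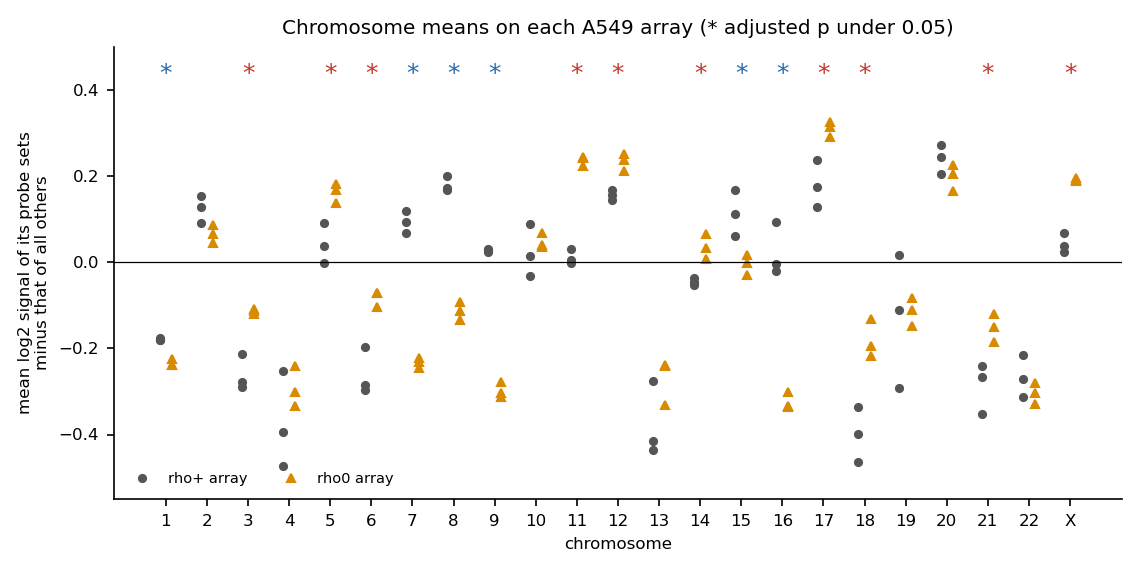
Mean log2 signal of the kept probe sets of each chromosome minus that of all others (vertical axis) on each A549 array, circles for ρ+ and triangles for ρ° arrays, with an asterisk where limma's adjusted p was under 0.05 (red higher, blue lower in ρ° cells). On chromosomes 7, 8, 9 and 16 the triangles lie well below the circles, and on 11 and X above them.

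To ask which changes differed from those of the other line, the change in A549 was set against that in 143BTK− in a limma fit of all 12 arrays. The difference passed for 247 of the kept probe sets (1.89%), and for 15 of the 24 genes named first. These 24 genes were chosen by their large change on the same A549 arrays. Their share thus cannot be read against that of all probe sets. GPX2 had a log2 change of −0.05 in 143BTK−, where both of its means were under 50 (difference −5.31 ± 0.54, adjusted p = 0.000296), and IGFBP3 had one of 1.17 (difference −4.04 ± 0.40, adjusted p = 0.00029), opposite in sign to A549. PTPRO had a log2 change of −5.22 in 143BTK−, and the difference did not pass (adjusted p = 0.74). The count was 66 without the A549 ρ° A array, 88 without A549 ρ+ B, 118 without 143BTK− ρ° A, 136 without 143BTK− ρ+ A, 145 without A549 ρ° B and 163 without A549 ρ+ A or without 143BTK− ρ+ B.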

How the data were processed

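RNA preparations of A549 cells, 3 of ρ° and 3 of ρ+, were hybridised to human 1-colour oligonucleotide arrays. The authors made 1 intensity a probe set with Microarray Suite, quantile-normalised the intensities of the 6 arrays of each cell line separately, and deposited them on a linear scale, per the methods and the labels. Probe sets called absent on all 6 arrays were removed in the study. Its detection calls and its error model, which was fitted to other arrays, were not used here, and the same number of probe sets, the brightest by mean log2 intensity over the A549 arrays, was kept instead. The number of arrays limits the precision.

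The log2 intensities were compared between ρ° and ρ+ arrays with limma 3.58.1 in R 4.3.3 (lmFit and eBayes with an intensity trend, two-sided, 4 residual degrees of freedom, Benjamini-Hochberg adjustment over all kept probe sets, threshold 0.05), with no covariate. Arrays carry letters A to C in each group. Deviations from the group mean correlated between arrays of the same letter at r = 0.11, 0.05 and 0.09, so the letters were not taken as pairs. Of all probe sets 19071 list 1 gene, 1043 several and 2169 none, and 19059 of the first were matched to RefSeq by gene ID. A gene with several kept probe sets was represented by the brightest of them. The 12 genes named first in each direction passed in all 6 fits that left out 1 array, had groups apart on every array, and had the largest change with means under 50 raised to 50, and up to about 4 genes of each list that passed were then named with their values. Genes without a call were named for their role after their values were known. The members and lists were chosen with earlier results of these data known. The difference from 143BTK− was tested as an interaction in a fit of all 12 arrays. Chromosome means were compared with limma over 23 chromosomes. Promoters were searched on both strands with Python 3.11.15. The limma step was tested on simulated data. Alternatives were an added offset of 16 or 64, other filters, no trend, a replicate block, cyclic loess, centring on the chromosome mean, all 12 arrays in the fit, the mean over the probe sets of a gene, and leaving out each array.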

Additional observations from a re-analysis of the deposited data

Results flagged for a closer look

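For 15 of the 24 genes with the largest change in A549, the change differed from that in 143BTK− by limma's test of the difference over all 12 arrays. The 24 genes were chosen by their A549 change on arrays that also enter this test, which favours a difference. Of the genes that rose in A549, OLFML3 had log2 changes of 2.25 in A549 and −1.66 in 143BTK−, a difference of 3.91 (adjusted p = 0.00386). MMD had log2 changes of 2.32 in A549 and −0.39 in 143BTK−, a difference of 2.71 (adjusted p = 0.00427). PMAIP1 had log2 changes of 2.02 in A549 and −0.50 in 143BTK−, a difference of 2.51 (adjusted p = 0.0271). GAA had log2 changes of 1.95 in A549 and −0.28 in 143BTK−, a difference of 2.23 (adjusted p = 0.0273). MRC2 had log2 changes of 2.02 in A549 and 0.39 in 143BTK−, a difference of 1.62 (adjusted p = 0.0464). The difference was positive in all 5, and MRC2 is the one that was higher in ρ° cells of both lines by the fitted change.

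Of the genes that fell in A549, KRT19 had log2 changes of −6.96 in A549 and 1.08 in 143BTK−, a difference of −8.04 (adjusted p = 0.00335). GPX2 had log2 changes of −5.36 in A549 and −0.05 in 143BTK−, a difference of −5.31 (adjusted p = 0.000296). CEACAM6 had log2 changes of −5.51 in A549 and −0.37 in 143BTK−, a difference of −5.14 (adjusted p = 6.14e-05). C3 had log2 changes of −4.45 in A549 and 0.61 in 143BTK−, a difference of −5.06 (adjusted p = 0.00301). TM4SF4 had log2 changes of −5.08 in A549 and −0.46 in 143BTK−, a difference of −4.63 (adjusted p = 0.0175). IGFBP3 had log2 changes of −2.87 in A549 and 1.17 in 143BTK−, a difference of −4.04 (adjusted p = 0.00029). CAMK2N1 had log2 changes of −3.47 in A549 and −0.17 in 143BTK−, a difference of −3.30 (adjusted p = 0.00335). PIP had log2 changes of −2.93 in A549 and 0.24 in 143BTK−, a difference of −3.17 (adjusted p = 0.0067). SLC27A2 had log2 changes of −2.83 in A549 and 0.31 in 143BTK−, a difference of −3.14 (adjusted p = 0.0062). SLPI had log2 changes of −2.88 in A549 and −0.78 in 143BTK−, a difference of −2.10 (adjusted p = 0.0313). The difference was negative in all 10. The arrays of each line were normalised separately. In 143BTK− both group means of OLFML3, GPX2, CEACAM6, C3, KRT19, TM4SF4, SLPI, SLC27A2 and PIP were under a signal of 50, so the sizes of their changes there are uncertain. For those that fell in A549, a fall of like size could not have been read in 143BTK− at such signals.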

How the results depend on the processing

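In all 408 refits of the 24 genes named first (17 each), direction and call were the same. The 6 left-out fits are among the 17 and had served to choose these genes, so a call could not be lost there. The same 6 fits are counted, with calls fixed likewise, for the list members that had passed in all of them. For list members that had passed in every left-out fit, 1459 refits kept the call and 15 lost it: ALDOA without an intensity trend (adjusted p = 0.075) and when centred on the chromosome mean, and the other 13 in the fit of all 12 arrays or as a mean over probe sets, as given beside the genes, with PCBP2 the one not described (adjusted p = 0.417). The 11 genes named with a call that some left-out fit lost (CDH1, NUPR1, PCK2, GPI, PGAM1, SLC2A1, PKM, EBP, HSD17B7, DHCR7 and FDPS) kept it in 128 refits and lost it in 59. Counts moved more. With 1 array left out, 202 to 1064 probe sets rose, 215 to 857 fell, and 66 to 330 differed between the lines. Among probe sets, rises outnumbered falls over all 6 arrays but not without ρ° A (202 against 223) or ρ° C (589 against 726). With 1 probe set a gene, falls outnumbered rises over all 6 arrays (485 against 409). Without an intensity trend 420 rose, 350 fell and 131 differed, and with 16 or 64 added to the signals 385 or 463 differed. Centred on the chromosome mean, 449 fell. With both C arrays left out, a fit chosen after seeing the data, 1070 fell. With the replicate letter as a block 736 rose, 706 fell and 195 differed, with no other setting changed, and 19 chromosomes passed. The labels do not say that a letter pairs cultures. List medians moved by less than the spread between replicates in 746 refits and by more in 70. Of the 16 chromosomes, 1, 12, 14, 15, 17 and 21 did not pass with the median in place of the mean (12 passed in all), nor did 14 at a mean signal of at least 100 or 1 without ρ° A or ρ+ B. The causes of these shifts were not tested. No refit reversed the direction of one of these genes or chromosomes.

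The depth of an array has no count, and signals under 50 lie near the lowest kept, so sizes there are uncertain. The 3 ρ° arrays come from 1 pooled ρ° population, so p-values measure the spread between RNA preparations and not between independent depletions of mtDNA. The study does not say whether the preparations came from separate cultures.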
